A study of Mus musculus with 15 samples.

Results

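Among 15 libraries of jejunal epithelium, 3 held more than 25% of their counts in genes encoded by the mitochondrial genome, and these 3 mitochondria-rich libraries are set here against the other 12. They were selected on this share, the estimated counts of all genes whose symbol starts with mt- over the counts of all genes, so the share and the levels of the mitochondrial genes describe the choice and are not tested. All libraries are bulk RNA-seq of poly(A) RNA from epithelial cells of the jejunum of CC027/GeniUnc mice, an inbred line of the Collaborative Cross. Every mouse of every group was of this strain, and no transgene or knockout is named. The mitochondria-rich libraries were replicate 1 of the PBS mice, replicate 3 of the sensitized controls and replicate 3 of the mice killed 60 min after challenge.

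The PBS mice received PBS by gavage on all 4 occasions and were not challenged. The sensitized controls received 2 mg of crude peanut extract weekly for 3 weeks and 5 mg in week 4, and were not challenged either. The mice of the 30, 60 and 120 min groups were sensitized in the same way and were killed at these times after a challenge gavage of 12 mg of peanut extract. For all 5 groups of 3, a 4 cm stretch of jejunum starting 6 cm past the pylorus was kept at room temperature for 75 min in a buffer containing DTT (0.5 mM) and EDTA (2 mM), and the cells were then shaken off. Nothing in the labels states that cells of other types were removed. The titles carry different numbers for the libraries, which were taken to be 15 mice; if they were not, p-values measure only the spread between these samples, which may be technical.

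The mitochondrial genome encodes subunits of respiratory chain complexes I, III, IV and V, the RNAs of the mitochondrial ribosome and a set of transfer RNAs, and all other proteins of mitochondria come from nuclear genes. It is transcribed from both strands as long precursors that are cut into single RNAs, and most of these receive a poly(A) tail. They are therefore captured with cytoplasmic mRNA, and in the epithelium of the gut, which spends much energy on transport, they are abundant. A high share of mitochondrial reads is commonly used as a sign of stressed or damaged cells, since cytoplasmic RNA can be lost while mitochondria are kept. More mitochondrial RNA and less RNA of nuclear genes cannot be told apart in these libraries, nor can fewer cells of a type and less RNA per cell.

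Mitochondrial genes held 25.5% of the counts in PBS replicate 1, 26.7% in sensitized control replicate 3 and 33.2% in 60 min replicate 3, against 13.8% to 20.6% in the 12 others, whose median was 17.0%. PBS replicate 1 lay just inside the threshold, and 30 min replicate 3, at 20.6%, was the nearest library outside it. The other 2 PBS libraries held 18.6% and 15.5%, the other 2 sensitized controls 18.2% and 17.1%, and the other 2 libraries at 60 min 14.0% and 18.2%. The groups at 30 and 120 min had no library over 25%, so they add to the estimate of the spread and not to the difference. Total estimated counts were 16617941 to 19551034 in the mitochondria-rich libraries and 15661513 to 22691349 in the others. Counts of nuclear genes were 12123067 to 14405100 in the mitochondria-rich libraries and 12524868 to 18770098 in the others.

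**Figure D1:**
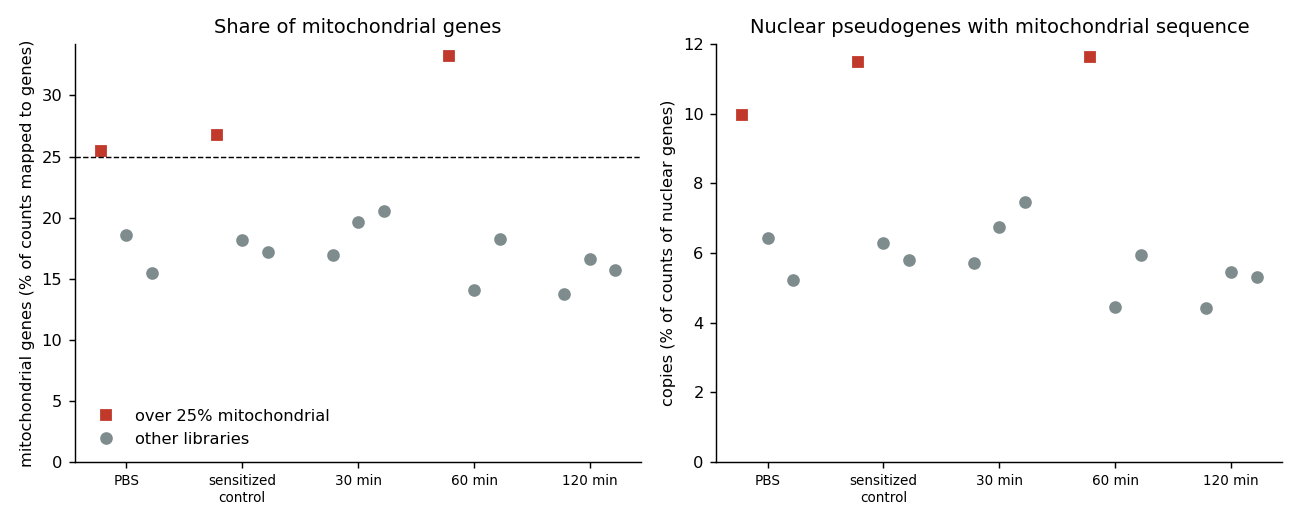
Left, the share of mitochondrial genes in the counts mapped to genes (%), and right, the share of nuclear pseudogenes with mitochondrial sequence in the counts of nuclear genes (%), for each library by group; red squares are the 3 libraries over 25% and grey circles the 12 others, and the dashed line marks 25%. The squares lie at 25.5% to 33.2% on the left and at 9.96% to 11.6% on the right, above every circle in both panels.

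Of 37 mitochondrial genes in the annotation, 16 had any count and 15 had a mean of at least 10 counts per library, namely both ribosomal RNAs and all 13 protein-coding genes. Levels of mitochondrial genes are in CPM of the counts mapped to genes, are not divided by length and are not compared between genes. The ribosomal RNA mt-Rnr1 stood at 4728 CPM in PBS replicate 1, 3797 in sensitized control replicate 3 and 4191 in 60 min replicate 3, against 1270 to 3021 with a median of 1906 in the 12 others. Its mean was 2.11 times as high in the mitochondria-rich libraries as in the others, and that of mt-Rnr2 2.09 times. The complex IV subunit mt-Co1 had the lowest ratio, 1.53, at 52780 CPM in PBS replicate 1, 55279 in sensitized control replicate 3 and 50519 in 60 min replicate 3, against 28293 to 40350 CPM in the others. Other subunits lay between, with mt-Nd4 of complex I at 1.84, mt-Cytb of complex III at 1.66 and mt-Atp6 of complex V at 1.66 times.

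Of the 15 genes, 14 were higher in the mitochondria-rich library than in both others in all 3 groups with both kinds of library. The exception was mt-Nd6, the subunit encoded on the strand opposite to all other mitochondrial protein genes, at 2017 CPM in PBS replicate 1 against 2360 and 1704 CPM in the other 2 PBS libraries. In 60 min replicate 3 mt-Nd6 stood at 5029 CPM, against 1576 and 2347 CPM in the 2 others. Over all 12 others, mt-Nd3, mt-Nd5 and mt-Nd6 overlapped with the mitochondria-rich libraries and the other 12 genes did not.

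**Figure D2:**
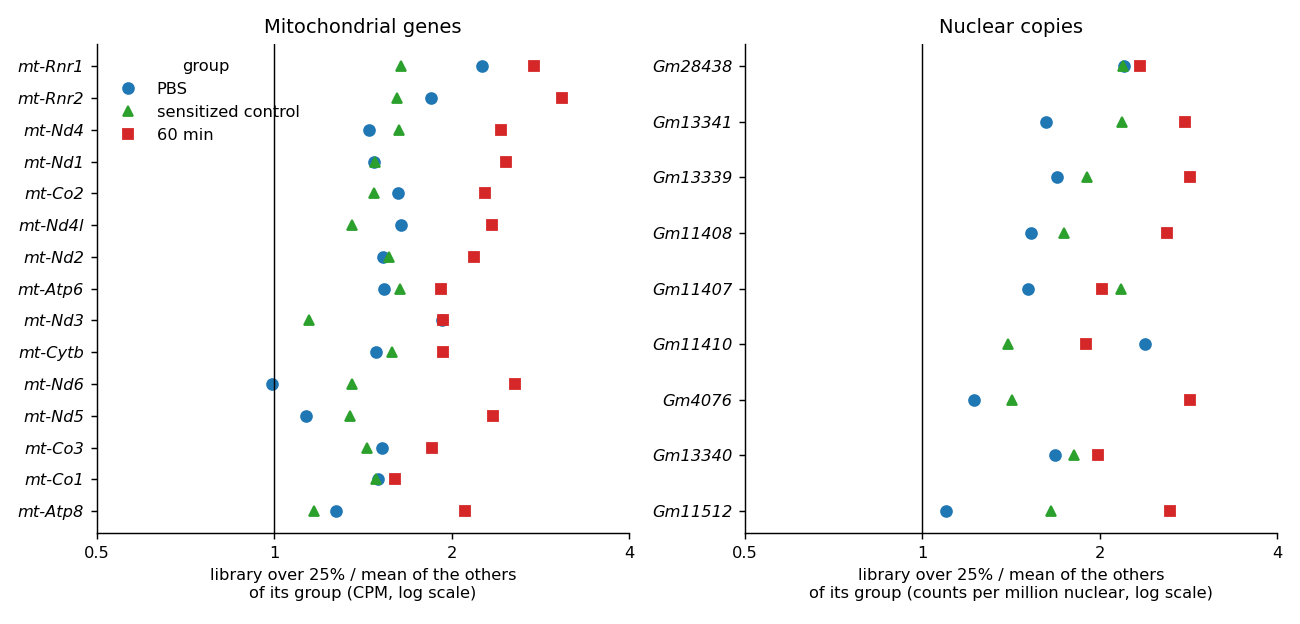
Level in the mitochondria-rich library over the mean of the 2 others of its group, on a log axis with 1 marked by a line, for the 15 mitochondrial genes (left, CPM) and for the 9 nuclear copies with counts in every library (right, CPM of nuclear counts); circles are PBS, triangles sensitized control and squares 60 min. All ratios but that of mt-Nd6 in PBS (0.993) lie above 1, and the 60 min square of mt-Rnr2 reaches 3.08.

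The choice used the sum of the mitochondrial counts and not how it divides among the genes, so the division was examined separately. By an exact two-sided permutation test of the log2 share of each gene in the mitochondrial counts, with labels exchanged within groups, 0 of 15 genes passed at an adjusted p under 0.05. The 27 arrangements allow no p below 0.037037, so a gene could pass only if most of the 15 reached that smallest p together. The test could therefore hardly give a call, and 0 calls do not show that the division was alike. The lowest exact permutation p found was 0.111 (Benjamini-Hochberg adjusted over 15 genes, 0.317). The ribosomal RNA mt-Rnr1 had 1.51% of the mitochondrial counts on average in the mitochondria-rich libraries and 1.176% in the others, a within-group log2 difference of 0.38. The same difference was 0.33 for mt-Rnr2, 0.10 for mt-Nd4, −0.07 for mt-Co3 and −0.13 for mt-Co1. For mt-Rnr1 it was 0.59 in the PBS group, 0.13 in the sensitized controls and 0.43 at 60 min, positive in all 3. For mt-Co1 it was 0.00 in the PBS group, −0.03 in the sensitized controls and −0.37 at 60 min.

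Nuclear genomes also carry old insertions of mitochondrial DNA, and transcripts annotated there can share reads with the mitochondrial genes. A sequence search found 15 such pseudogenes with any count (copies, at least 80% identical over at least 50% of their length), 12 of them with a mean of at least 10 counts. Together they held 9.96% of the nuclear counts in PBS replicate 1, 11.5% in sensitized control replicate 3 and 11.6% in 60 min replicate 3, against 4.41% to 7.46% in the 12 others. Adding them to the mitochondrial genes raised the share to 32.9%, 35.2% and 41.0% in the mitochondria-rich libraries, against 17.6% to 26.5% in the others. The same 3 libraries were highest by either sum.

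Gm13340 (chr2:22588103-22589647, minus strand, mm10) is an unprocessed pseudogene that aligns to mt-Co1 (chrM:5328-6872) with 37 differences in 1545 bases. It was given 96.5% to 106% as many counts as mt-Co1 in the mitochondria-rich libraries and 97.0% to 102% in the others. Gm28438 (chr1:24612775-24613119, minus strand) differs from mt-Nd3 (chrM:9459-9806) at 1 of 345 bases, with an identical stretch of 342 bases. Gm13341 (chr2:22587291-22587962, minus strand) matches mt-Co2 at 95.9% of aligned bases. The windows shown are 151 bases long, taken at the single difference for Gm28438 and where differences are densest for the other 2, because they show the bases that differ between copy and mitochondrial gene over 1 stretch of this length. They are from the GENCODE M21 transcripts on GRCm38 (mm10), 5′ to 3′, and capitals mark the bases that differ within each pair, 1 in the first, 7 in the second and 9 in the third.
Gm28438, chr1:24612969-24613119, minus strand: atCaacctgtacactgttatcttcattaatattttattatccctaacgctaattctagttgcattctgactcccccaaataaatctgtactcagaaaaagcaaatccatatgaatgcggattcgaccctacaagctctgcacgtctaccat
mt-Nd3, chrM:9459-9609, plus strand: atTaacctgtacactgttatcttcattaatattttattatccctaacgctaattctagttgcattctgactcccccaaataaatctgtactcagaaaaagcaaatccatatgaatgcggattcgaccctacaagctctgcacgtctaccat
Gm13340, chr2:22589045-22589195, minus strand: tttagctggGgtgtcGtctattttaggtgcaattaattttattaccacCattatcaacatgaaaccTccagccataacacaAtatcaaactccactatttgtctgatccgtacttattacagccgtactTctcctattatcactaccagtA
mt-Co1, chrM:5780-5930, plus strand: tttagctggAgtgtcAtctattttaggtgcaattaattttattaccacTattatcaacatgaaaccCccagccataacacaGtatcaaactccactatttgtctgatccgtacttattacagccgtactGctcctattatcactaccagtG
Gm13341, chr2:22587369-22587519, minus strand: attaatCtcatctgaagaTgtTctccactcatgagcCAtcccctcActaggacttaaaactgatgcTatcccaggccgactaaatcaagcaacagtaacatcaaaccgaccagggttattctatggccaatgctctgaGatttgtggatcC
mt-Co2, chrM:7468-7618, plus strand: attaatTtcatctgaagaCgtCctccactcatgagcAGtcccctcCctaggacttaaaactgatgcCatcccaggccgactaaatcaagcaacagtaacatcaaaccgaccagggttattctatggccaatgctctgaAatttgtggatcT

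Nuclear genes were tested with edgeR over all 15 libraries with the group as a covariate, after mitochondrial genes had been taken out of the library sizes. Their levels are in CPM of nuclear counts, and differences are log2 fold changes ± standard error, mitochondria-rich minus other. Of 14902 genes, 2 passed at an adjusted p under 0.05 and were higher in the mitochondria-rich libraries (0.0134%), and 0 were lower. Both are copies. Gm28438 stood at 579, 687 and 631 CPM in the mitochondria-rich libraries, against 200.2 to 368 with a median of 251 in the others, a difference of 1.25 ± 0.11 (edgeR, adjusted p = 0.000134). Gm13340 stood at 69588, 84602 and 79175 CPM against 29825 to 51223 CPM, a difference of 0.95 ± 0.14 (edgeR, adjusted p = 0.0361). The call of Gm28438 held whichever of the 15 libraries was left out. That of Gm13340 was lost with 11 of the 15 left out in turn, and its adjusted p in edgeR reached 0.386 without 60 min replicate 3; it held without PBS replicate 1 or 2 or 30 min replicate 1 or 3. Both genes match mitochondrial genes that the selection summed, and how reads were divided between them is uncertain, so their values are given as a description and not as independent of the selection. With the copies left out, an alternative chosen after seeing the data, edgeR called 0 genes.

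At an unadjusted p under 0.05, 870 genes were on the higher side (5.84%) and 874 on the lower side (5.86%), 1744 or 11.7% in all, where 5% would fall by chance. The mitochondria-rich library was above both others in all 3 groups for 1113 genes (7.47%) and below both for 1158 (7.77%). All 3 mitochondria-rich libraries lay above all 12 others for 106 genes (0.711%) and below them for 132 (0.886%). DESeq2 called 72 genes higher and 93 lower, and limma-voom 4 higher and 0 lower. Of the 77 nuclear genes in the naming rule DESeq2 called 26, the 6 copies and 20 others, and its calls among genes described here are given beside their edgeR values. The 10 smallest p belonged to 6 copies and to Mal, Gm14698, Galnt5 and Car12, and in edgeR no gene other than Gm28438 and Gm13340 passed.

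Of the goblet cell list, 2 of 17 measured members, Fcgbp and Muc2, had all 3 mitochondria-rich libraries above the 12 others. Over all 14902 genes tested 0.711% did so, and over the 871 list members 7 did. Fcgbp, a large protein that binds to mucin, stood at 13084, 11220 and 11111 CPM in the mitochondria-rich libraries, against 5027 to 9557 with a median of 6394 in the others. Muc2, the gel-forming mucin of goblet cells, stood at 1696, 1426 and 1477 CPM against 667 to 1227 CPM. Galnt5, which is on none of the gene lists and had one of the 10 smallest p, is an enzyme that starts O-linked sugar chains, and stood at 43.2, 33.4 and 33.0 CPM against 14.3 to 28.8 CPM. For these 3 genes no mitochondria-rich library overlapped with any of the 12 others. They were named in order of p, so this lack of overlap is a description. The differences were 0.79 ± 0.15, 0.75 ± 0.18 and 0.87 ± 0.16, and none passed in edgeR (adjusted p = 0.115, 0.211 and 0.1004). DESeq2 called all 3 (adjusted p = 0.000237, 0.0158 and 0.000962).

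The goblet cell list as a whole had no common sign over the groups. Of its members 15 had positive differences, with a median of 0.33 against −0.01 over all genes tested, 3 were at an unadjusted p under 0.05, and 0 passed. As a mean log2 CPM over members, PBS replicate 1 differed by 0.74 from the mean of the other 2 PBS libraries, sensitized control replicate 3 by 0.31 from its 2 others and 60 min replicate 3 by −0.19. The secreted trefoil factor Tff3 and the disulfide isomerase Agr2, named after their values were seen, differed by 1.19 and 1.42 (log2) in the PBS group and by −1.12 and −2.06 at 60 min. Without PBS replicate 1 the median of the list was 0.08.

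Other genes outside the range of all 12 other libraries were Mal, a membrane protein of apical transport, and Car12, a membrane-bound carbonic anhydrase. Mal stood at 1.51, 2.17 and 1.84 CPM against 0.192 to 1.48 CPM, and Car12 at 24.4, 24.6 and 27.7 CPM against 35.4 to 59.4 CPM. The differences were 2.38 ± 0.41 and −0.74 ± 0.14, and neither passed in edgeR (adjusted p = 0.0776 and 0.115), while DESeq2 called both (adjusted p = 0.00100 and 0.000962). Mal had a mean of 0.99 CPM over all libraries and 0.36 CPM in the other libraries of the same 3 groups. These levels are near the floor, so the size of its difference is uncertain. Gm14698 was at 0, 0.348 and 0 CPM against 0.837 to 6.48 CPM, and no fold is given for it; DESeq2 called it lower (adjusted p = 0.000215). The death receptor Tnfrsf10b, a target of p53, stood at 11.2, 13.3 and 15.4 CPM against 16.3 to 31.3 CPM (−0.75 ± 0.15; adjusted p = 0.128 in edgeR and 0.00373 in DESeq2).

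Most genes of the stem cell and Wnt list had lower values in the mitochondria-rich libraries, none of them called in edgeR and some in DESeq2. The Paneth cell list had 11 of 14 measured members positive, a median of 0.27 and 0 called in edgeR. Its mean log2 CPM differed by 0.46 in the PBS group, 0.13 in the sensitized controls and 0.03 at 60 min. Only PBS replicate 1 lay above both others of its group, and without it the Paneth median was 0.12. Of 18 measured members of the stem cell and Wnt list 17 had negative differences, with a median of −0.39, 9 were at an unadjusted p under 0.05 on the lower side and 1 on the higher side, and 10 were below both others in all 3 groups. Smoc2, a secreted protein of crypt base stem cells, stood at 56.7, 58.3 and 44.7 CPM against 53.2 to 98.1 with a median of 80.1 (−0.60 ± 0.14; adjusted p = 0.19 in edgeR and 0.0117 in DESeq2). Olfm4, an abundant marker of these cells, stood at 750.5, 538 and 634 CPM against 640.1 to 1287 CPM (−0.62 ± 0.15; adjusted p = 0.211 in edgeR and 0.00974 in DESeq2). In each of the 3 groups both genes were lowest in the mitochondria-rich library, and over all 12 others they overlapped. Igfbp4, a secreted binder of insulin-like growth factors, did not overlap, at 7.54, 6.70 and 8.35 CPM against 9.90 to 18.7 CPM (−0.85 ± 0.23; adjusted p = 0.235 in edgeR and 0.0447 in DESeq2).

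The stem cell receptor Lgr5, named after its values were seen, stood at 22.3, 16.3 and 42.5 CPM against 16.5 to 46.5 CPM (−0.49 ± 0.18; edgeR, adjusted p = 0.325). The member on the other side was Prom1, a membrane glycoprotein also found outside stem cells, at 107, 71.0 and 92.2 CPM against 42.3 to 89.1 CPM (0.60 ± 0.16; adjusted p = 0.225 in edgeR and 0.0473 in DESeq2). The list median ranged from −0.52 to −0.26 when each library was left out in turn. Cell cycle genes gave no such pattern. The proliferation list had a median of −0.07, with 3 of 30 members at an unadjusted p under 0.05, and its mean log2 CPM differed by 0.24 in the PBS group and by −0.28 in the sensitized controls and at 60 min.

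**Figure D3:**
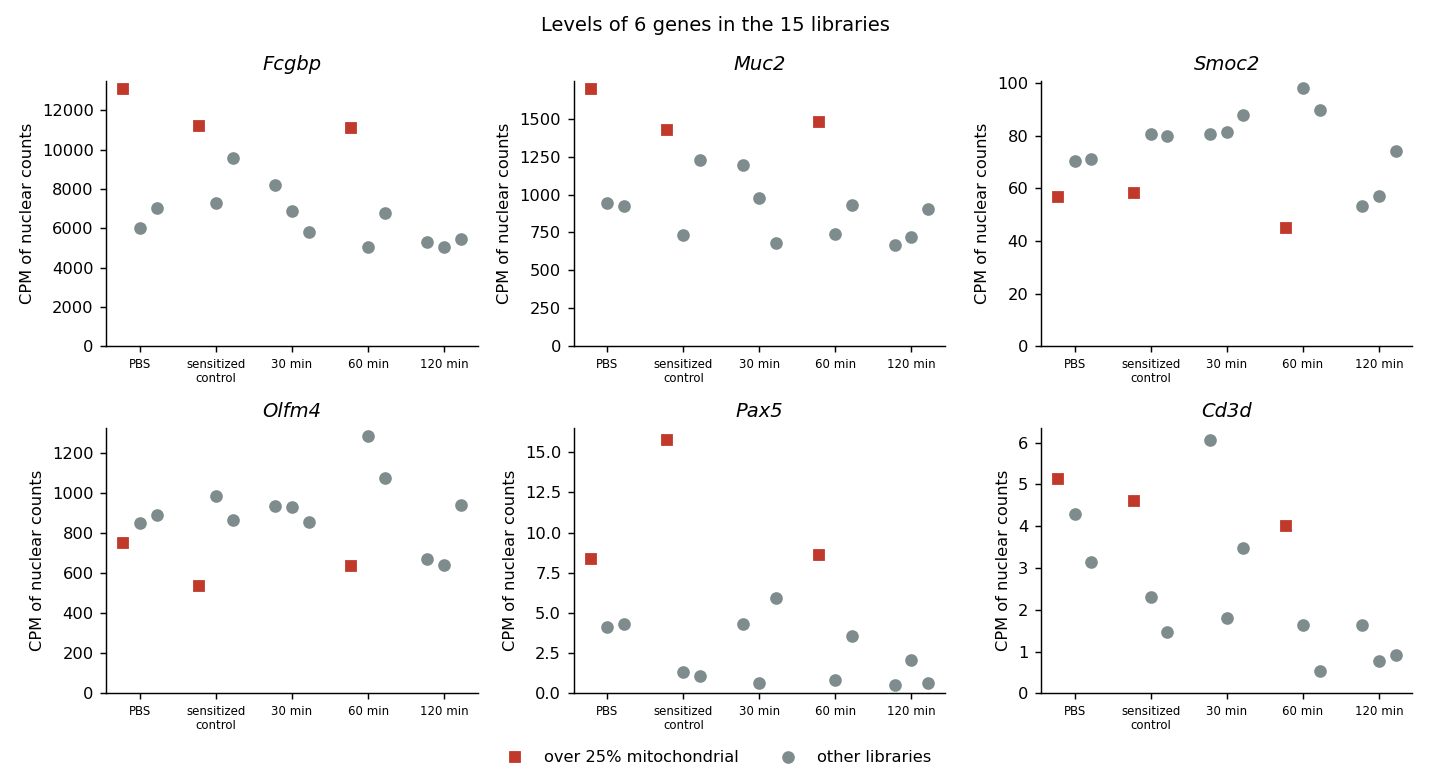
Levels in CPM of nuclear counts of the mucus genes Fcgbp and Muc2, the stem cell genes Smoc2 and Olfm4, the B cell factor Pax5 and the T cell receptor component Cd3d in each library by group; red squares are the 3 mitochondria-rich libraries and grey circles the 12 others. The squares of Fcgbp (11111 to 13084 CPM), Muc2 and Pax5 lie above all circles, and within each of their groups the squares of Smoc2 and Olfm4 lie below both circles.

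The mean levels of the T cell, the B and plasma cell and the MHC class II lists were higher in the mitochondria-rich library than in both others in each of the 3 groups, which the macrophage and mast cell lists did not show. Over all single genes tested, 7.47% had this pattern. Of 23 measured T cell and intraepithelial lymphocyte markers, 22 had positive differences, with a median of 1.08 and 11 at an unadjusted p under 0.05 on the higher side. Of 16 markers of B and plasma cells 15 were positive (median 1.39, 10 at such a p on the higher side and 1 on the lower), as were 8 of 8 genes of the MHC class II pathway (median 1.497, 5 at such a p). None passed in edgeR. Pax5, the factor that sets B cell identity, stood at 8.36, 15.7 and 8.60 CPM in the mitochondria-rich libraries, against 0.529 to 5.92 with a median of 1.72 in the others (2.29 ± 0.67; adjusted p = 0.271 in edgeR and 0.0245 in DESeq2). Trdc, the constant region of the T cell receptor δ chain, stood at 8.01, 7.48 and 9.77 CPM against 1.70 to 7.17 CPM (1.23 ± 0.36; edgeR, adjusted p = 0.249). Neither overlapped, whereas Cd3d, a chain of the T cell receptor complex, did, at 5.14, 4.61 and 4.01 CPM against 0.533 to 6.07 CPM. Ciita, the master regulator of MHC class II genes, also overlapped, at 17.9, 36.5 and 26.5 CPM against 1.97 to 25.6 CPM (1.97 ± 0.68; edgeR, adjusted p = 0.327).

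Some of the 12 others had immune markers as high. Summed over the list, T cell markers ranged from 319 to 537 CPM in the mitochondria-rich libraries and from 48.5 to 514 CPM in the others, and MHC class II genes from 802 to 1084 CPM in the mitochondria-rich libraries and from 140.5 to 1044 CPM in the others. The sum of the B and plasma cell list was 2094 to 3728 CPM in the mitochondria-rich libraries and 390.5 to 3801 CPM in the others. The difference of the T cell list was 0.10 (mean log2 CPM) in the PBS group, 1.5 in the sensitized controls and 1.21 at 60 min. Without sensitized control replicate 3 the medians were 0.77 for T cells, 0.85 for B and plasma cells and 0.91 for MHC class II. With the mean of T cell, B cell and macrophage markers as a covariate, the medians were 0.01 for T cells, 0.39 for B and plasma cells, 0.53 for MHC class II and −0.22 for the stem cell list. The T cell and the B and plasma cell lists are part of that covariate, so the fall of their medians was built in. The macrophage and dendritic cell list had a median of 0.37, with 16 of 19 positive. The globin gene Hba-a1 stood at 103, 96.0 and 89.8 CPM against 10.3 to 99.1 CPM, and the erythroid list had a median of 1.13, with 5 of 6 positive. Most of that size came from 60 min replicate 3. The mean of the erythroid list differed by 0.41 in the PBS group, 0.35 in the sensitized controls and 2.24 at 60 min. Without 60 min replicate 3 its median was 0.47.

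Genes induced by interferon were also on the higher side, with 19 of 21 positive, a median of 0.52 and 8 at an unadjusted p under 0.05, 0 of them past the adjusted threshold. The antiviral GTPase Mx2 stood at 10.5, 10.8 and 13.6 CPM against 3.99 to 12.8 CPM (0.82 ± 0.23; edgeR, adjusted p = 0.237). The nucleic acid sensor Zbp1 stood at 10.8, 14.7 and 6.59 CPM against 2.52 to 11.3 CPM (1.196 ± 0.388; edgeR, adjusted p = 0.294). Both were highest in the mitochondria-rich library within each group and overlapped over the 12 others. The list shares no member with the immune cell lists, but lymphocytes express many of its genes. Its median was 0.25 with the immune markers as a covariate, and the part of immune cells in it was not tested.

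Epithelial markers were abundant in every library. These genes, among them Epcam, Cdh1 and Krt8, summed to 18768 to 23101 CPM in the mitochondria-rich libraries and 20099 to 27048 CPM in the others, with a median difference of −0.07 and 14 of 16 negative. Cldn7, a claudin of cell junctions, was lowest in the mitochondria-rich library of each group, at 754, 822 and 504 CPM against 689 to 1089 CPM (−0.37 ± 0.12; edgeR, adjusted p = 0.294). Brush border genes had a median of −0.23 and their list mean differed by −0.91 in the PBS group, −0.10 in the sensitized controls and 0.36 at 60 min. All 24 measured genes of xenobiotic metabolism were negative (median −0.34, 7 at an unadjusted p under 0.05), among them the glutathione transferase Gsta1 at 48.1, 91.6 and 31.9 CPM against 54.6 to 161 CPM (−0.74 ± 0.19; adjusted p = 0.224 in edgeR and 0.01996 in DESeq2). The mean of the xenobiotic list differed by −0.71 in the PBS group, −0.30 in the sensitized controls and −0.15 at 60 min. Only PBS replicate 1 lay below both others of its group, and without it the median was −0.18. Stromal markers summed to 92.0 to 180 CPM in the mitochondria-rich libraries and 93.0 to 372 CPM in the others.

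Immediate early genes, which respond within minutes to stimuli and handling, had lower values in the mitochondria-rich libraries. Of 23 measured members 22 were negative, with a median of −0.27, 9 at an unadjusted p under 0.05 and 10 below both others in all 3 groups. The AP-1 subunit Jund stood at 789, 966 and 458 CPM against 808 to 1116 CPM (−0.48 ± 0.13; adjusted p = 0.225 in edgeR and 0.0218 in DESeq2). The stress-responsive factor Atf3 stood at 1118, 1170 and 381 CPM against 881 to 1364 CPM (−0.52 ± 0.19; edgeR, adjusted p = 0.325). Most of the size came from 60 min replicate 3: the list mean differed by −0.06 in the PBS group, −0.09 in the sensitized controls and −0.75 at 60 min. Without that library the median was −0.10.

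No nuclear gene of the respiratory chain passed the test. In edgeR, 0 of 37 nuclear genes of complex I, 0 of 4 of complex II, 0 of 10 of complex III, 0 of 12 of complex IV and 0 of 16 of complex V were at an unadjusted p under 0.05, and 0 passed. The medians were −0.07, −0.07, −0.11, −0.18 and −0.05 for complexes I to V. The PBS group and the 60 min group had opposite signs. For complex IV the list mean differed by 0.19 in the PBS group, −0.03 in the sensitized controls and −0.71 at 60 min. The small subunits of that complex named here after their values were seen were Cox7c, with differences of 0.62, 0.03 and −0.78 in the same groups, and Cox7b, with 0.41, 0.05 and −1.16. Without 60 min replicate 3 the medians of complexes I, III, IV and V were 0.11, 0.10, 0.07 and 0.14. For complex I the list means differed by 0.23, −0.05 and −0.44, and for the mitochondrial ribosome by 0.25, −0.06 and −0.33. Whether the groups differ from each other was not tested, since each holds 1 mitochondria-rich library.

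Factors that copy and read the mitochondrial genome also gave no call. Of 30 measured genes of its expression 22 were negative, with a median of −0.09 and 3 at an unadjusted p under 0.05, all lower. Tfam, which packages mitochondrial DNA and starts its transcription, stood at 46.9, 37.6 and 49.0 CPM against 41.3 to 60.2 CPM (−0.13 ± 0.11; edgeR, adjusted p = 0.683). Polrmt, the mitochondrial RNA polymerase, was above both others in all 3 groups, at 39.5, 50.2 and 44.0 CPM against 35.7 to 49.7 CPM (0.19 ± 0.10; edgeR, adjusted p = 0.481). Lrpprc and Slirp, which together stabilize mitochondrial mRNA, differed by −0.01 ± 0.12 and −0.13 ± 0.35 (edgeR, adjusted p = 0.976 and 0.918). Of 14 regulators of mitochondrial biogenesis 13 were negative, with a median of −0.12, and Sirt1, a deacetylase that acts on them, stood at 55.6, 71.7 and 38.1 CPM against 53.6 to 101 CPM (−0.44 ± 0.18; edgeR, adjusted p = 0.373).

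Long noncoding RNAs that stay in the nucleus were examined next. Malat1, a nuclear speckle RNA, stood at 359, 429 and 568 CPM in the mitochondria-rich libraries, against 301 to 483 with a median of 382 in the others (0.24 ± 0.15; edgeR, adjusted p = 0.526). Neat1, the scaffold of paraspeckles, was lowest in the mitochondria-rich library of each group, at 184, 169 and 92.5 CPM against 173 to 489 CPM (−0.76 ± 0.28; edgeR, adjusted p = 0.334). These 2 RNAs gave differences of opposite sign, and neither passed. Malat1 differed by −0.13 in the PBS group, where it too was lowest in the mitochondria-rich library, 0.17 in the sensitized controls and 0.67 at 60 min. The list of RNAs retained in the nucleus had a median of −0.29, with 6 of 9 negative. Its mean differed by 0.27, −0.25 and −0.64 in the same groups, and without 60 min replicate 3 its median was 0.02. The splicing factor list, whose mRNAs often keep introns in the nucleus, had a median of −0.18, with 19 of 22 negative and 5 at an unadjusted p under 0.05. Transcripts annotated as retaining an intron held 2.06 ± 0.40% of the nuclear counts in the mitochondria-rich libraries and 2.31 ± 0.18% in the others (SD, n = 3 and 12; exact permutation p = 0.185).

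**Figure D4:**
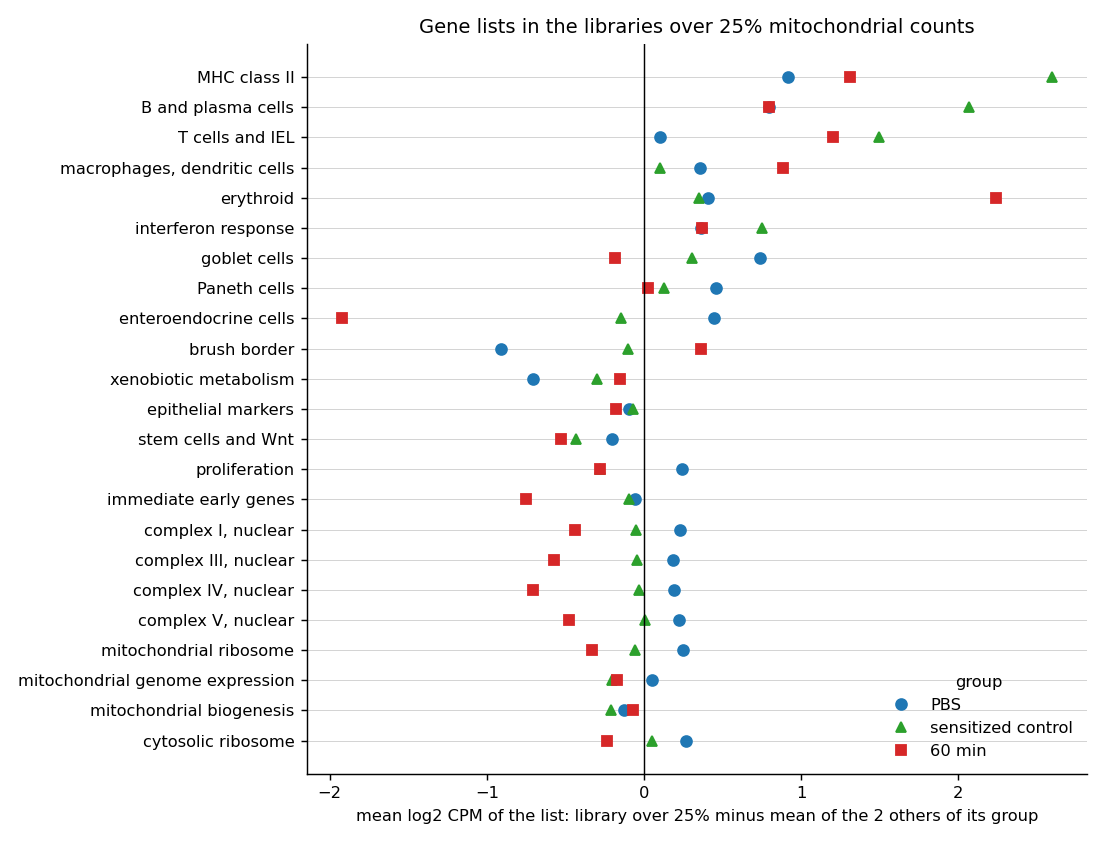
Difference in mean log2 CPM of 23 gene lists between the mitochondria-rich library and the mean of the 2 others of its group; circles are PBS, triangles sensitized control and squares 60 min, and the line marks 0. Immune and interferon lists lie right of the line and the stem cell and immediate early lists left of it in all 3 groups, while the lists of respiratory chain subunits lie right of it in PBS and left of it at 60 min.

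Over the 48 lists with tested members, the mitochondria-rich library exceeded both others of its group in all 3 groups in 4 (T cells, B and plasma cells, MHC class II, interferon response) and was below both in 4 (epithelial markers, stem cells and Wnt, immediate early genes, mitochondrial biogenesis). In 19 lists it was above both in 1 group and below both in another. Of the 14902 single genes tested, 7.47% were above both others in all 3 groups and 7.77% below both. The counts of 4 lists on either side are near these shares and are a description. Of the 871 list members tested 0 passed, 7 had all 3 mitochondria-rich libraries above the 12 others and 4 had them below. Over all 14902 genes tested, 0.711% lay above and 0.886% below in this way. The counts among list members are near these shares and are no result about the members. Over 11795 genes of moderate level, the differences of the groups correlated with Pearson's r of 0.24 between PBS and sensitized controls, −0.03 between PBS and 60 min and 0.32 between sensitized controls and 60 min. These are correlations across genes, which are not independent replicates and come from different mice in each group.

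The length of the transcript ordered the genes in opposite ways in PBS replicate 1 and 60 min replicate 3. In the shortest quintile of nuclear genes, up to 1116 bases of effective length, the median log2 difference was 0.18 in the PBS group, −0.02 in the sensitized controls and −0.32 at 60 min. In the longest quintile, from 3746 bases, it was −0.04 in the PBS group, −0.00 in the sensitized controls and 0.22 at 60 min. The mean transcript length weighted by counts was 3022 bases in PBS replicate 1, 3047 in sensitized control replicate 3 and 3376 in 60 min replicate 3, against 3063 to 3364 in the others. The 3 mitochondria-rich libraries thus held the lowest 2 values and the highest. Many respiratory chain and mitochondrial ribosome genes have short transcripts, and the part of transcript length in their values was not tested.

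**Figure D5:**
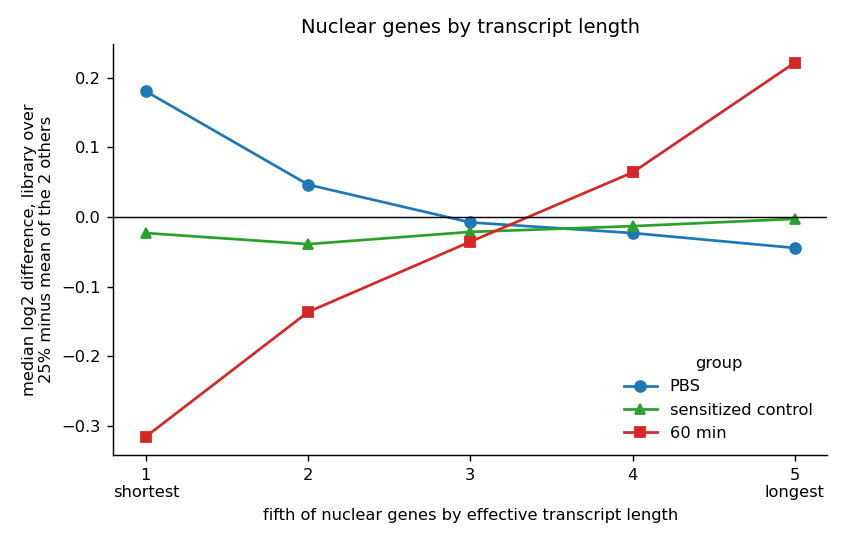
Median log2 difference (mitochondria-rich library minus the mean of the 2 others of its group) over the nuclear genes of each quintile by effective transcript length, shortest at the left; circles are PBS, triangles sensitized control and squares 60 min. The PBS line falls from 0.18 to −0.04, the 60 min line climbs from −0.32 to 0.22, and the sensitized control line stays between −0.04 and 0.

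Measures of whole libraries, 8 in all, were compared by the exact permutation test within groups. With 27 arrangements, a measure could pass the adjusted threshold only if most of the 8 reached the smallest p together. The 50 most abundant nuclear genes held 24.5 ± 1.17% of nuclear counts in the mitochondria-rich libraries and 19.3 ± 0.962% in the others, and pseudogenes 11.9 ± 0.89% and 6.67 ± 0.901% (SD, n = 3 and 12). The copies made up 82.4% to 93.4% of the pseudogene counts, and the most abundant of them are among the 50 genes, so both shares follow the selection and their difference is a description with no test. Without the copies the shares were 15.9 ± 0.705% and 14.9 ± 0.491% for the 50 genes (exact p = 0.148) and 0.989 ± 0.046% and 0.959 ± 0.0496% for pseudogenes (exact p = 0.222). The other 6 measures had adjusted p of 0.494 or more.

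The study's own comparisons between groups were run with and without these libraries. In the group model edgeR called 0 genes for sensitized controls against PBS mice (203 at an unadjusted p under 0.05) and 0 at 30 min against sensitized controls (770 at such a p). It called 1 gene at 60 min (0.00671%), the heat shock cochaperone Dnajb1, named after its value was seen (−1.11 ± 0.16; adjusted p = 0.0471), and 184 genes at 120 min (1.23%), 99 higher and 85 lower. The adjusted p of Dnajb1 was 0.0798 with a term for the mitochondria-rich libraries and 0.774 without them, and with single libraries left out its call was kept in 3 of 15 fits. A term for the mitochondria-rich libraries left 101 calls at 120 min, 95 of them among the 184, and without the 3 libraries 7 were left, all among the 184. All 184 genes kept their direction without the 3 libraries, with a median absolute log2 difference of 0.78 against 0.79 with them. These genes were chosen in the fit with all libraries. Of the 3 libraries, only sensitized control replicate 3 belongs to the groups compared at 120 min. The kept direction and size were therefore largely built in and are a description. Leaving out sensitized control replicate 1 or 2, neither mitochondria-rich, left 12 or 16 calls, close to the 7 without mitochondria-rich replicate 3. Without 120 min replicate 1 or 3 the calls were 15 or 13, without 60 min replicate 2 they were 90, without PBS replicate 3 they were 96, and without 30 min replicate 3 they were 113. Without 60 min replicate 3, the library with the highest mitochondrial share, 381 genes were called at 120 min. These comparisons share the sensitized controls.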

How the data were processed

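Bulk RNA sequencing of polyadenylated RNA was available for 15 libraries in 5 groups of 3, grouped by the labels. The submitters' processing notes name cutadapt 1.18, Salmon 1.2.1 and the build mm10; they name no transcript annotation release. The authors' deposited tables, per the file headers, give an estimated count, a TPM and lengths for 139058 transcripts. Deposited estimated counts were summed to 52844 genes with GENCODE M21 and rounded; 1115 transcripts, with 0.374% to 0.602% of the counts of a library, matched no gene. Deposited TPM values served only for 1 alternative of the composition test and as weights of transcript lengths. Salmon divides reads of near-identical transcripts among them, so levels of mitochondrial genes and their nuclear copies, and of single globins, are uncertain.

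Mitochondrial genes were removed, genes kept by filterByExpr were scaled by TMM, and edgeR 4.0.16 (robust glmQLFit and glmQLFTest, R 4.3.3) was fitted with group and a term for the mitochondria-rich libraries (9 residual degrees of freedom, common coefficient of variation 0.243). A gene was called where its p, adjusted by Benjamini-Hochberg across the 14902 genes, was under 0.05. Copies were found with BLAST+ 2.17.0 at an e-value of at most 1e-10. Exact permutation tests exchanged labels within groups. On simulated counts for 14902 genes the mitochondria-rich contrast recovered 38% of genes changed 1.5-fold, 72% at 2-fold, 92% at 3-fold and 96% at 4-fold (50 each), with 7 false calls. The changed genes were drawn from those with a mean of at least 2 CPM, so these shares do not cover lower genes. Counts were drawn for each gene separately, without shifts shared by many genes of a library.

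The libraries and the gene lists were chosen with earlier results of these data known. Named genes are, for this contrast, the 12 largest rises and falls past the threshold without numbered models; list members past it, or up to 4 per list in order of p; mitochondrial genes; Malat1, Neat1, Tfam, Polrmt, Lrpprc and Slirp; and the 10 smallest p where fewer than 5 pass. Alternatives were RLE and upper quartile scaling, mitochondrial genes kept, no filter, DESeq2 1.42.0, limma-voom (limma 3.58.1), the logit share, a split over 20%, no group term, transcript length offsets, covariates for immune markers and for brush border minus proliferation, and each library left out; copies left out and single libraries left out of the group comparisons were added after seeing the data. Tables were joined in Python 3.11.15 (numpy 2.4.6, pandas 2.3.3) and drawn with matplotlib 3.10.9.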

Additional observations from a re-analysis of the deposited data

Results flagged for a closer look

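Each of the groups PBS, sensitized control and 60 min holds 1 mitochondria-rich library, and 48 gene lists, 77 genes and 8 library measures were searched for cases in which that library lay above both others of 1 group and below both others of another. Such a difference between groups was not tested for any of them. The value given is the group difference of largest size, as mean log2 CPM of the list, mitochondria-rich minus other.

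Nuclear genes of mitochondria took opposite sides, with the mitochondria-rich library at 60 min at −0.44 for complex I, −0.57 for complex III, −0.71 for complex IV, −0.48 for complex V, −0.33 for the mitochondrial ribosome and −0.36 for mitochondrial import, all positive in the PBS group. Expression of the mitochondrial genome stood at −0.20 in the sensitized controls and mitochondrial quality control at −0.0579 in the PBS group. Among lists of stress and RNA, RNAs retained in the nucleus stood at −0.64, the ATF4 response at −0.43 and p53 targets at −0.18 at 60 min, heat shock at 0.45 in the sensitized controls, and hypoxia and glycolysis at −0.21 and NF-κB at 0.18 in the PBS group. Among cell types, goblet cells stood at 0.74 and endothelium at 0.24 in the PBS group, and enteroendocrine cells at −1.92, smooth muscle at −1.10 and proliferation at −0.28 at 60 min. Among single genes, Malat1 stood at 0.67 and Lrpprc at 0.24 at 60 min, Slirp at 0.69 in the PBS group and Tfam at −0.33 in the sensitized controls. Among the library measures, total counts differed by 2413510 at 60 min and were lower in the sensitized controls. The share of lncRNA genes in nuclear counts differed by 0.083 percentage points in the PBS group, counts matching no gene by −0.145 percentage points of the nuclear counts and mean transcript length by −143 bases, each with 60 min replicate 3 on the other side.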

How the results depend on the processing

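Against 2 genes called higher and 0 lower, upper quartile scaling called 6 higher, keeping mitochondrial genes 8 higher and 1 lower, no filter on low counts 381 and 337, DESeq2 72 and 93, limma-voom 4 higher, the logit share 21 and 52, a split over 20% 1 higher, no group term 5 and 2, immune markers as a covariate 1 and 2, brush border minus proliferation as a covariate 12 and 6, and the copies left out 0 higher. Leaving out single libraries gave 1 to 6 higher and 0 to 1 lower. Genes at an unadjusted p under 0.05 numbered 487 higher with the immune covariate, and 1409 lower with no filter, 1518 with the logit share and 555 with the split over 20%, or 457 (without 60 min replicate 3) to 1369 (without PBS replicate 1) with single libraries left out. List members called numbered 105 with no filter, 16 in DESeq2, 12 with the logit share and 2 with the brush border covariate, against 0. Lrpprc changed sign with upper quartile scaling (0.0047), the logit share (0.0815), the split over 20% (0.0452) and the immune covariate (0.10), and ranged from −0.14 to 0.088 without single libraries, as Slirp did from −0.61 to 0.11. With labels permuted over all libraries, 2 of 8 library measures passed, the shares of pseudogenes and of the 50 most abundant genes, which hold the copies and so follow the selection; without the copies the exact permutation p was 0.308 and 0.0132. The difference in mean transcript length ranged from −127 to 2.23 bases without single libraries.

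For the 60 min comparison the calls were 0 with the mitochondria-rich term, 8 with the logit share, 2 without the libraries over 25% and 0 without the copies, and for the 120 min comparison 101, 118 and 7 under the first 3 of these. Leaving out single libraries gave 0 to 1 calls at 30 min, 0 to 320 at 60 min (320 without 60 min replicate 1) and 7 to 381 at 120 min. The cause of these changes was not tested. No paired analysis was possible because the replicate numbers only follow the order of the samples. With 3 libraries in 3 different groups, mitochondrial share, mouse and isolate cannot be told apart, and intervals cover the spread between these libraries only.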
